A study of Mus musculus with 19 samples.

Results

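Suppressor of cytokine signaling (SOCS) genes, the STAT transcription factors they hold in check and the shared receptor chain gp130 were examined in the cornea and conjunctiva of mice on different diets. The set held 10 genes (*Socs1*, *Socs2*, *Socs3*, *Socs5*, *Socs7*, *Cish*, *Stat3*, *Stat5a*, *Stat5b* and *Il6st*) of the 24547 uniquely named features in each tissue's table, and all 10 were found in both tables. The set was chosen by gene symbol with earlier results of these data known, and selected on the observation that *Socs1* moved in opposite directions with diet in the cornea and the conjunctiva. The diet changes of the 10 genes are therefore given as a description with their standard errors and without p-values, and the counts of calls among them, printed beside the shares of all genes, support nothing.

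Bulk RNA was sequenced from C57BL/6 mice that either ate ad libitum (AL) or were calorie restricted (CR), with 5 AL and 5 CR libraries from the cornea and 4 AL and 5 CR libraries from the conjunctiva. By the study's methods the mice were adult females of the C57BL/6J substrain, the cornea samples were scraped corneal epithelium, the conjunctiva was excised, and CR mice were fed once a day shortly before the dark phase. The methods describe a pair of cohorts, in one of which the CR chow also carried extra vitamins and micronutrients, and the labels do not say from which cohort a library came. The paper describes a restriction brought in gradually and kept for months, in mice it calls middle-aged. Every title carries the codes 6M and 50W, which the labels do not explain, and libraries are named below by tissue, diet and the number in the title.

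Cytokine receptors of the JAK-STAT pathway have no enzyme activity of their own. Binding of a cytokine brings together receptor chains that carry Janus kinases (JAKs), which phosphorylate STAT proteins, and the STAT dimers enter the nucleus and switch on target genes. Among these targets are SOCS genes and *Cish*, whose proteins bind the receptor or the kinase and damp the signal, so that their RNA is commonly read as a sign of recent signaling. In surface epithelia the pathway serves wound repair, barrier upkeep and responses to interferons.

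Activated STAT dimers bind a spaced palindrome of the letters TTCNNNGAA, where N is any base and the motif reads the same on both strands. It was searched in windows from 250 bases before to 50 bases after a listed start of each gene (build GRCm38.p6). A listed start need not be where the annotated gene begins. The windows of *Socs3*, *Stat5a* and *Stat5b* lay inside the annotated spans of these genes. Windows were given for 7 of the 10 genes, 9 windows in all. *Socs2*, *Socs5* and *Socs7* had no entry. The motif occurred in the windows of *Cish*, which had 2 matches, and of *Socs3*, which had 1. Among all 32851 windows 8.30% held at least 1 match and 0.457% held 2 or more. The 30-base stretches around these matches are shown because both genes are feedback inhibitors known to be STAT targets, with the matched letters in capitals.
Cish, chr9:107296654-107296683, plus strand: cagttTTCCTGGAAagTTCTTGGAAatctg
Socs3, chr11:117969502-117969531, minus strand: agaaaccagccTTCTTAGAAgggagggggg
Counted from 1 at the listed start, the *Cish* matches covered bases 1 to 9 and 12 to 20, at the start itself. The *Socs3* match lay at bases -154 to -146 from its listed start, within the span annotated for the gene (117966079 to 117970336). No match was found in the windows of *Socs1*, *Stat3*, *Stat5a*, *Stat5b* or *Il6st*, which says only that these letters are not there. The E-box CACGTG, the site of the core clock factors, occurred in 7.15% of all windows and in none of the 9. A match is a description of the letters and not a bound site.

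On the same build *Socs1* lies on chromosome 16 at 10783808 to 10785536 and *Cish* on chromosome 9 at 107296659 to 107302784, and neither overlaps another gene. *Stat5b*, *Stat5a* and *Stat3* lie side by side on chromosome 11, with gaps of 346 and 1636 bases. *Stat5a* and *Stat5b* are near-identical copies over part of their length: 5.12% of the 75-base stretches of *Stat5a* transcripts and 6.99% of those of *Stat5b* were shared with another gene of the set. How the authors counted reads from such stretches is not given in the sources used here, so small differences between these paralogs are uncertain. *Socs2*, *Socs5* and *Stat3* overlap the predicted genes *Gm33230*, *Gm30510* and *Gm46295*, and the use of strand in counting was not settled.

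Each cornea library held 10354377 to 14681466 counted reads, and each conjunctiva library 10727077 to 14433802. The tissue labels matched their markers: the corneal keratin *Krt12* measured 179846 to 340965 normalized counts in cornea libraries and 436 to 5139 in conjunctiva libraries, and the goblet cell mucin *Muc5ac* 0 to 43.3 and 2328 to 6593. In the conjunctiva the summed skeletal muscle markers were 11320 normalized counts in AL 3, against 47688 to 51271 in the other AL libraries. They ran from 13259 (CR 5) to 112006 (CR 3) in CR. A few corneal libraries also stood apart. Cornea AL 4 had 45.2% of features at 0 reads against at most 40.7% in the other AL libraries, cornea CR 7 had the highest summed conjunctival epithelial markers (81631 normalized counts, against at most 56916 elsewhere in the cornea), and cornea AL 1 had a summed lacrimal gland marker level of 24159 against at most 829.5 in the others. Features at 0 reads made up 40.5% ± 2.70 (SD, n = 5) of the table in cornea AL and 44.4% ± 3.06 (SD, n = 5) in cornea CR, and 35.3% ± 1.90 (SD, n = 4) and 37.1% ± 2.29 (SD, n = 5) in the conjunctiva. A count of 0 allowed up to 3 reads, or 2.27 to 3.37 normalized counts depending on the library, which covers counting error only.

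*Socs1* encodes an inhibitor that binds JAK kinases directly and is best known for ending interferon signals. In the cornea its normalized counts were 8.80, 14.2, 3.27, 20.3 and 12.4 in AL 1 to AL 5. The CR 1, CR 2, CR 3, CR 4 and CR 7 libraries gave 26.3, 50.9, 40.9, 33.7 and 70.6. All 5 CR libraries lay above all 5 AL libraries, with AL 4 the highest of the lower group and CR 7 the highest of all. The group means were 11.8 ± 6.34 (SD, n = 5) in AL and 44.5 ± 17.2 (SD, n = 5) in CR, and the fitted log2 change from AL to CR was 1.93 ± 0.53 (SE), a fold of 3.82. These values rested on few reads, 3 to 23 per AL library and 24 to 76 per CR library, and the 3 reads of AL 3 were at the limit that a count of 0 allows. With single libraries left out the change ran from 1.58 on the log2 scale (without AL 3) to 2.16 (without AL 4), and it was 1.88 without AL 1 and 1.75 without CR 7. With the share of features at 0 reads as a covariate it was 1.23.

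In the conjunctiva *Socs1* lay the other way. The AL 1, AL 3, AL 4 and AL 5 libraries had 72.3, 98.7, 59.2 and 103.6 normalized counts. The libraries CR 1 to CR 5 had 51.6, 32.4, 31.9, 74.8 and 38.8. Of the 5 CR libraries 4 lay below every AL library, and CR 4 lay within the AL range. Means were 83.5 ± 21.2 (SD, n = 4) and 45.9 ± 18.0 (SD, n = 5), a log2 change of -0.89 ± 0.35 (SE), which is 1.85-fold lower in CR. Reads per library for *Socs1* ran from 33 to 114 in this tissue. The gap between the tissues' changes, cornea minus conjunctiva, was 2.82 ± 0.63 (SE) on the log2 scale, and it is the value that chose the set. In bulk samples like these, fewer cells of a type and less RNA per cell cannot be told apart.

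The tables of the tissues were scaled separately, so levels were set side by side only as reads scaled to 1000000 counted reads per library (CPM), with no test. For *Socs1* the CPM values were 1.01 ± 0.54 (SD, n = 5) in cornea AL and 7.04 ± 1.70 (SD, n = 4) in conjunctiva AL, with every conjunctiva library above every cornea library. Under CR they were 3.84 ± 1.39 (SD, n = 5) in the cornea and 3.62 ± 1.30 (SD, n = 5) in the conjunctiva, and the libraries overlapped. The tissues' *Socs1* levels thus lay a factor of 6.95 apart in AL mice and a factor of 1.06 apart in CR mice.

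**Figure D1:**
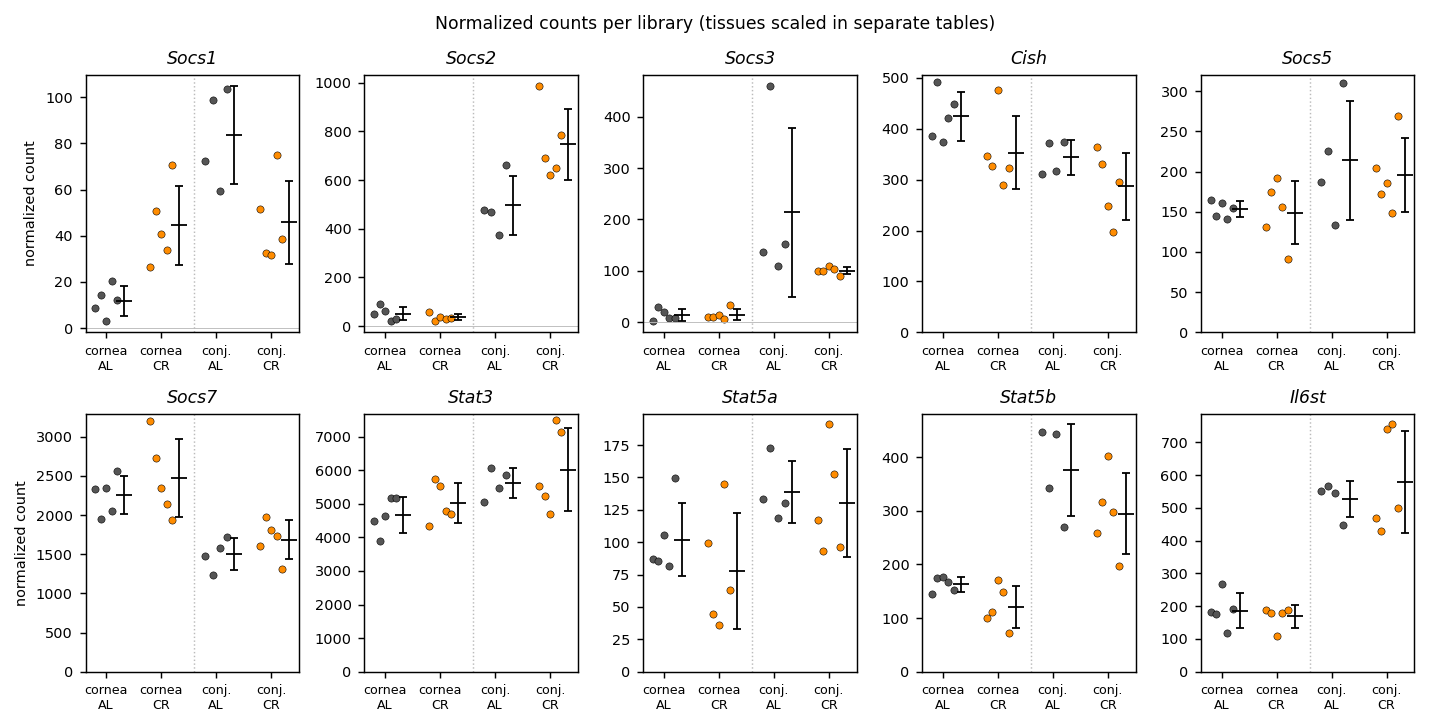
Normalized counts (linear axes from 0) of the 10 genes in each library, by tissue and diet; points are libraries, and bars to their right give the mean and SD (n = 5, 5, 4 and 5). For *Socs1* the cornea CR points lie between 26.3 and 70.6, all above the AL points, while in the conjunctiva 4 of 5 CR points lie below the lowest AL point.

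*Socs2* encodes a feedback inhibitor of growth hormone signaling and, like *Cish*, is a known STAT5 target. It was scarce in the cornea, where the AL libraries 1 to 5 had 49.5, 91.8, 62.2, 23.0 and 28.8 normalized counts and the CR libraries (1, 2, 3, 4 and 7) had 57.0, 22.6, 35.6, 30.7 and 35.3. The corneal groups overlapped, and the log2 change was -0.38 ± 0.41 (SE). With the share of features at 0 reads as a covariate the sign turned, to 0.25.

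In the conjunctiva *Socs2* had 476.7, 470.2, 374.4 and 663.2 normalized counts in AL 1, AL 3, AL 4 and AL 5. The CR 1 to CR 5 values were 985.7, 689.1, 621.8, 651.6 and 785.7. The CR libraries 1, 2 and 5 lay above all AL libraries, and the other 2 lay between AL 5 and the rest of the AL group. The means were 496 ± 121 (SD, n = 4) in AL and 747 ± 147 (SD, n = 5) in CR, a log2 change of 0.60 ± 0.18 (SE), and a fold of 1.51. Its sign was kept under all 18 alternative settings, which gave 0.47 to 0.75. In CPM *Socs2* lay 9.52-fold higher in the conjunctiva than in the cornea in AL and 18.9-fold higher in CR, with no overlap of libraries in either diet. Its change in the cornea minus that in the conjunctiva was -0.98 ± 0.45 (SE).

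*Socs3*, the feedback inhibitor that binds gp130 and limits STAT3 activity, was close to the lower limit of counting in the cornea. There the AL libraries had 3.30, 30.6, 20.7, 7.96 and 9.27 normalized counts, and the CR libraries 10.9, 10.4, 13.6, 6.13 and 34.4. These ranges overlapped almost fully, and the log2 change was 0.18 ± 0.73 (SE), with 3 to 37 reads per library. Its sign turned under 4 of 18 alternatives, so the cornea gave no direction for *Socs3*.

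The conjunctiva held more *Socs3*. The AL 1, AL 3, AL 4 and AL 5 libraries had 135.9, 459, 109.7 and 151.7 normalized counts, and the CR 1 to CR 5 libraries 100.3, 99.0, 110.1, 104.5 and 89.8. The CR libraries lay close together and 4 of 5 lay below all AL libraries, while AL 3 stood far above the rest. Means were 214 ± 164 (SD, n = 4) and 101 ± 7.50 (SD, n = 5), a log2 change of -0.83 ± 0.34 (SE), which became -0.38 without AL 3. In CPM the level was 14.5-fold higher in the conjunctiva than in the cornea in AL and 6.20-fold higher in CR. The AL ratio rests in part on conjunctiva AL 3, at 38.1 CPM against 9.37 to 12.7 in the other AL libraries. The AL means were 18.0 ± 13.5 (SD, n = 4) in the conjunctiva and 1.24 ± 0.96 (SD, n = 5) in the cornea.

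*Cish*, the first described gene of the family, is induced by STAT5 and competes with STATs for receptor docking sites. In the cornea its AL 1 to AL 5 values were 385.1, 491.6, 373.3, 421.8 and 448.0 normalized counts. Its CR values (1, 2, 3, 4 and 7) were 347.2, 326.0, 475.8, 290.2 and 323.2. All CR libraries but CR 3 lay below the AL group, and CR 3 was near its top. The log2 change was -0.28 ± 0.15 (SE).

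The conjunctival *Cish* values were 311.9, 372.6, 316.3 and 373.4 in AL (1, 3, 4 and 5), and 363.3, 331.2, 248.1, 197.7 and 295.9 in CR 1 to CR 5. Here 3 of the 5 CR libraries lay below all AL libraries. The log2 change was -0.28 ± 0.19 (SE), and the difference between the tissues' changes was 0.0047 ± 0.24 (SE). Over the alternatives the *Cish* change was -0.39 to -0.22 (cornea) and -0.38 to -0.16 (conjunctiva), below 0 throughout.

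*Socs5* and *Socs7*, members of the family with long N-terminal regions, showed little difference between diets. *Socs5* had 141.5 to 165.0 normalized counts in cornea AL (median 154.5) and 91.0 to 191.7 in cornea CR (median 156.3), so that the CR libraries spread to both sides of the AL libraries. Its log2 changes were -0.08 ± 0.21 (SE) in the cornea and -0.09 ± 0.25 (SE) in the conjunctiva. *Socs7* had 2252 ± 244 (SD, n = 5) and 2471 ± 499 (SD, n = 5) normalized counts in cornea AL and CR and 1504 ± 202 (SD, n = 4) and 1686 ± 250 (SD, n = 5) in conjunctiva AL and CR. Its log2 changes were 0.12 ± 0.13 (SE) and 0.16 ± 0.15 (SE), with overlapping libraries in both tissues.

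Of the 3 STAT genes in the set *Stat3* had the changes nearest 0 in both tissues. *Stat3*, the factor downstream of the interleukin-6 family, had 3899 to 5183 normalized counts in cornea AL and 4336 to 5746 in cornea CR, and 5048 to 6071 and 4684 to 7498 in the conjunctiva. Its log2 changes were 0.10 ± 0.11 (SE) and 0.08 ± 0.16 (SE), the former the smallest SE of the set. *Stat5a* and *Stat5b* encode the paralogs that relay growth hormone, prolactin and interleukin-2 family signals.

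*Stat5b* had 144.1, 174.8, 175.7, 166.2 and 152.4 normalized counts in cornea AL 1 to AL 5, and 99.7, 111.2, 170.5, 149.2 and 72.4 in cornea CR (1, 2, 3, 4 and 7). The AL libraries lay close together, and 3 of 5 CR libraries lay below them. Its log2 change was -0.49 ± 0.22 (SE). In the conjunctiva the AL libraries had 447.0, 342.3, 443.2 and 269.8 and the CR libraries 259.1, 316.0, 402.6, 297.1 and 197.3, with 2 of 5 CR libraries below the AL range and a log2 change of -0.36 ± 0.22 (SE). *Stat5b* kept its sign under every alternative run in both tissues.

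*Stat5a* had a log2 change of -0.53 ± 0.34 (SE) in the cornea, where the CR libraries ran from 36.4 to 145.1 normalized counts and the AL libraries from 81.4 to 149.3. In the conjunctiva the change was -0.13 ± 0.26 (SE). The corneal value was -0.10 with the share of features at 0 reads as a covariate and -0.80 without CR 4. *Il6st*, which encodes gp130, the signaling chain shared by interleukin-6, leukemia inhibitory factor and oncostatin M, had log2 changes of -0.12 ± 0.22 (SE) in the cornea and 0.10 ± 0.19 (SE) in the conjunctiva, and its AL and CR libraries overlapped in both tissues. In CPM *Il6st* lay 2.77-fold higher in the conjunctiva in AL and 3.16-fold higher in CR, without overlap of libraries.

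**Figure D2:**
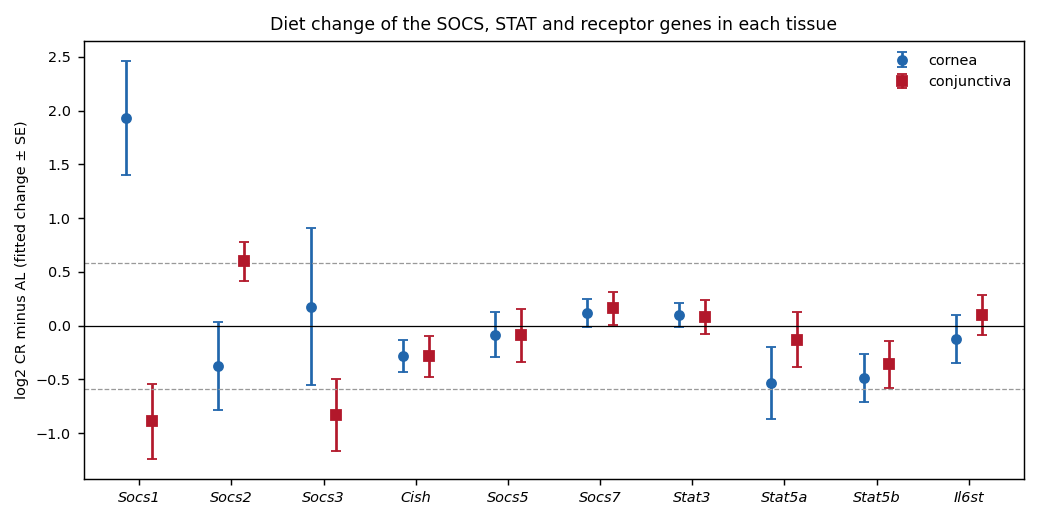
Fitted log2 change from AL to CR with its SE for the 10 genes in the cornea (circles) and the conjunctiva (squares); dashed lines mark a fold of 1.5 in either direction. *Socs1* has the values farthest from 0 in both tissues, 1.93 and -0.89, on opposite sides.

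A gene was called changed at an adjusted p under 0.05 with a fold over 1.5. In the cornea 1.22% of the 12277 genes tested were called and in the conjunctiva 0.359% of 13928. Of the 10 genes 0 were called in either tissue, by limma or by voom on the recovered reads. Counts at an unadjusted p under 0.05 by limma were 2 in the cornea and 3 in the conjunctiva, against 18.1% and 9.4% of all genes. In the cornea *Socs1* was called with quantile normalization, with array weights and without AL 4. For 1 of the 10 genes in the cornea (*Socs1*) and 0 in the conjunctiva the diets' ranges were fully apart, against 3.97% and 3.86% of all genes. Since the set was chosen on this contrast, nothing is read from these counts. Over the 10 genes the log2 changes had a median of -0.10 (cornea) and -0.11 (conjunctiva), beside -0.03 and -0.02 over all genes tested, with 4 genes above 0 and 6 below in each tissue.

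**Figure D3:**
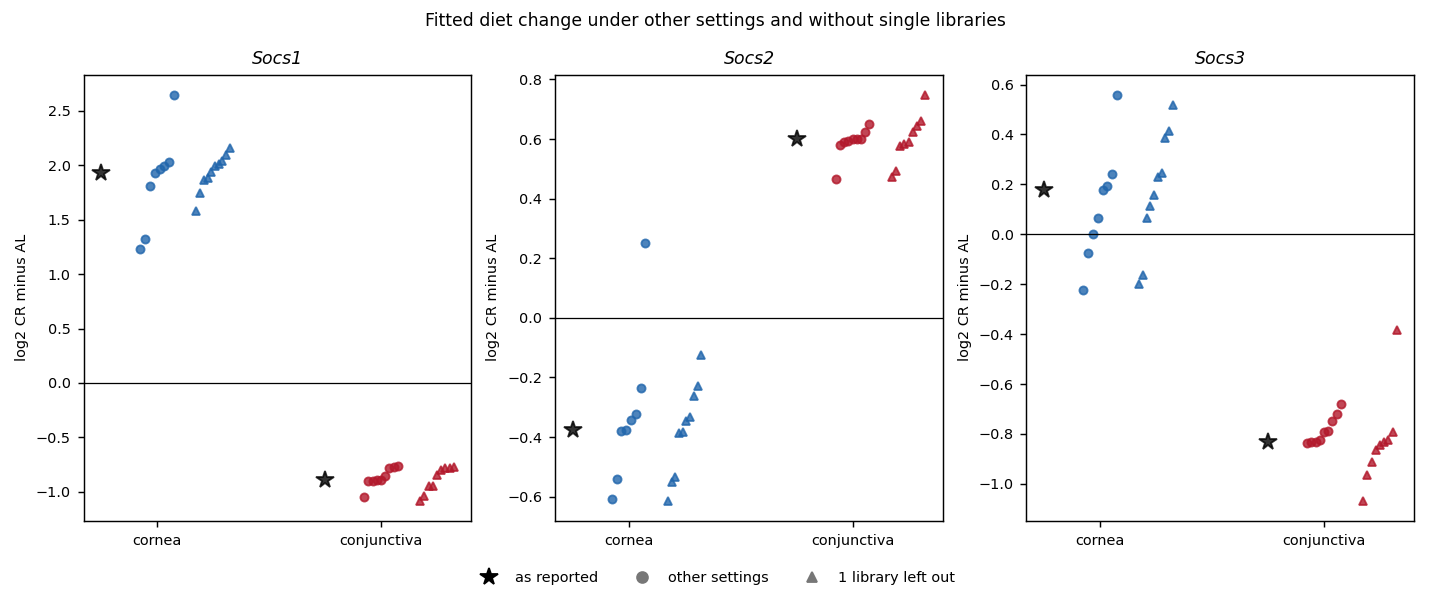
Fitted log2 change from AL to CR of *Socs1*, *Socs2* and *Socs3* as reported (star), under other settings (circles) and with single libraries left out (triangles), for each tissue. *Socs1* stays at 1.23 to 2.65 in the cornea and at -1.08 to -0.77 in the conjunctiva, while corneal *Socs2* and *Socs3* cross 0.

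To compare the genes with each other, normalized counts were divided by exon length in kilobases (GENCODE vM21, all exons of a gene merged). This assumes reads along the whole transcript, and the library type was not settled. The merged length was 2908 bases for *Socs1* and 6419 for *Cish*, each longer than the RefSeq span of the gene. It is therefore not the length of a transcript, and the order of the genes per kb depends on it. The order was read within each diet, with no test. *Stat3* was first in the cornea at 491 normalized counts per kb in AL (409 to 544 over the libraries) and 526 in CR, followed by *Socs7* at 310.0 and 340 and by *Cish* at 66.0 and 54.9. Each of these lay apart from the next gene in range, in both diets. At the low end of cornea AL the 3 feedback genes *Socs2* (5.36 per kb), *Socs3* (4.97) and *Socs1* (4.06) overlapped one another, and all lay below *Stat5a* at 14.3. In cornea CR *Socs1* ranked 6 at 15.3 per kb, between *Stat5b* and *Il6st*, while *Socs3* (5.22) and *Socs2* (3.80) were again the lowest. From *Socs5* on, each gene in cornea CR overlapped its neighbour.

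The conjunctiva had *Stat3* at 588 per kb in AL and 631 in CR and *Socs7* at 207 and 232, each without overlap with the next gene. Below them each gene overlapped its neighbour. In AL *Socs3* came next at 74.0 per kb, with AL 3 alone at 159 and the lowest library at 38.0, and *Socs2* ranked 6 at 52.1. In CR *Socs2* came next at 78.4 and *Socs3* ranked 7 at 34.8. *Socs1* ranked 9 in AL at 28.7 per kb and 10 in CR at 15.8.

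Variation within a diet was not used to choose the set, and 5 pairs of genes were tested for it in each tissue, 10 relations in all, on log2 values centered within diet. Among the pairs were *Cish* with *Socs2*, *Socs3* with *Stat3*, *Stat5a* with *Stat5b*, and *Il6st* with *Stat3*. No pair passed after adjustment, and 0 of 10 had an unadjusted Pearson p under 0.05. The nearest were the STAT5 targets *Cish* and *Socs2* in the conjunctiva, with Pearson r = 0.63 (exact two-sided permutation within diet, p = 0.0507, adjusted 0.507) and Spearman rho = 0.60 (p = 0.103, adjusted 0.756) over 9 libraries. Without the 2 libraries farthest from the median of *Cish*, r was 0.55. In the cornea the same pair gave r = 0.16 and rho = 0.0061 over 10 libraries (exact permutation p = 0.627 and 1, adjusted 0.799 and 1), and r = -0.28 without 2 libraries. The paralogs *Stat5a* and *Stat5b* gave r = -0.09 and rho = -0.21 in the cornea (exact permutation p = 0.859 and 0.605) and r = 0.43 and rho = 0.37 in the conjunctiva (p = 0.311 and 0.387), with r = -0.19 and 0.16 without 2 libraries each.

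The genes whose within-diet pattern was most like that of a feedback gene in both tissues were picked as the 3 with the highest Pearson r, taking the smaller of the tissues' values, among 9451 genes, and they are a description only. For *Socs1* these were *Phc2* (r = 0.77 in 10 cornea and 0.80 in 9 conjunctiva libraries), *Arnt* (0.77 and 0.88) and *Ccne1* (0.75 and 0.77). For *Socs3* they were the stress keratin *Krt17* (0.86 and 0.78), *Snhg6* (0.75 and 0.90) and the interferon-induced *Ifitm3* (0.74 and 0.77). *Cish* was nearest to *Ireb2* (0.83 and 0.83), *Rnf2* (0.75 and 0.81) and *Usp32* (0.71 and 0.86), and *Socs2* to *Fdx1* (0.75 and 0.88), *Rnf219* (0.72 and 0.72) and *Rpl39* (0.72 and 0.72). All points of a tissue share library depth and composition.

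The rest of the pathway was read from a list of ligands, receptors, kinases, other STATs, other SOCS genes, SOCS box partners, other negative regulators and STAT targets, of which 139 genes were in the tables. In the cornea 77 passed the filter on low counts and in the conjunctiva 93. By limma 1 gene was called in each tissue, the same one, beside the 1.22% and 0.359% of all genes. Unadjusted p by limma was under 0.05 for 19 of the 77 corneal and 22 of the 93 conjunctival pathway genes, beside 18.1% and 9.4% of all genes tested in the cornea and the conjunctiva. The corneal 19 include the receptor gene *Csf2rb*, which passed the filter only through the AL group, so nothing is read from its part in that count. The median log2 change of the list was 0.07 in the cornea (46 genes above 0 and 31 below) and -0.12 in the conjunctiva (38 above and 55 below), beside -0.03 and -0.02 for all genes.

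The called gene was *Ccnd2*, which encodes cyclin D2, a driver of the cell cycle and a known STAT5 target. It rose in the cornea from 3742 ± 554 (SD, n = 5) to 9952 ± 1741 (SD, n = 5) normalized counts, and the fitted change was 1.40 ± 0.13 (SE) on the log2 scale (limma, adjusted p = 9.2e-06). It was called under all 19 alternatives. In the conjunctiva it rose from 8325 ± 971 (SD, n = 4) to 16790 ± 3608 (SD, n = 5), with a fitted change of 0.99 ± 0.17 (SE) on the log2 scale (limma, adjusted p = 0.0149). All 5 CR libraries lay above all AL libraries in both tissues. The conjunctival call was lost in 7 of 18 alternatives, with adjusted p values from 0.00101 to 0.0929: without AL 3, AL 4, AL 5, CR 1, CR 2 or CR 4, and with the replicate number as a block. The other STAT5 targets on the list gave no calls, and in the set the STAT5 targets *Cish* and *Socs2* had log2 changes of -0.28 and -0.38 in the cornea and -0.28 and 0.60 in the conjunctiva.

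Of the ligands 18 of 37 had no read in any cornea library and 13 of 37 none in any conjunctiva library, among them growth hormone (*Gh*) and interferon gamma (*Ifng*), which at this depth allows up to 3 reads per library. Interleukin-6 (*Il6*) had 0 reads in the cornea and at most 14.6 normalized counts in the conjunctiva. Among the ligands measured, *Clcf1*, a gp130 ligand, had a fitted difference of 0.72 ± 0.24 (SE) on the log2 scale in the cornea (limma, adjusted p = 0.137), and it was called with array weights and without AL 4. *Il15*, which signals through STAT5, had -0.76 ± 0.28 (SE; limma, adjusted p = 0.377) in the conjunctiva. The receptor gene with the smallest p in the cornea was *Csf2rb*, with means of 45.1 ± 28.5 (SD, n = 5) normalized counts in AL and 4.73 ± 5.603 (SD, n = 5) in CR. It passed the filter on low counts only through the AL group, so its fitted difference of -2.85 ± 1.18 (SE) is given as a description. That difference ran from -4.02 to -0.73 over 18 alternatives. In the conjunctiva the receptor gene with the smallest p was *Il6ra*, the interleukin-6 receptor that pairs with gp130 (1.04 ± 0.25, SE; limma, adjusted p = 0.0991, and 0.0254 to 0.323 over 18 alternatives). *Il6ra* had 71.6 ± 16.7 (SD, n = 4) normalized counts in conjunctiva AL and 146 ± 20.9 (SD, n = 5) in CR, with all CR libraries above all AL libraries. None of the receptors was called in the fits as reported, while *Il6ra* was called with array weights.

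The kinases gave no calls. *Jak1* and *Jak2* had log2 changes of 0.02 ± 0.11 and -0.22 ± 0.15 (SE) in the cornea and -0.11 ± 0.14 and -0.25 ± 0.15 (SE) in the conjunctiva. *Tyk2* had -0.19 and 0.10, and the leukocyte kinase *Jak3* had -1.03 ± 0.47 (SE) in the cornea and 0.42 ± 0.64 (SE) in the conjunctiva, with at most 131 and 36 reads per library. Among the other STAT genes *Stat2* had log2 changes of 0.21 ± 0.16 (SE) in the cornea and -0.46 ± 0.19 (SE) in the conjunctiva, and *Stat6* -0.16 and 0.02. *Stat4* was below the filter in both tissues. The remaining SOCS genes *Socs4* and *Socs6* had 0.30 and 0.19 in the cornea and 0.02 and 0.14 in the conjunctiva.

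Among the other negative regulators *Ptpn1*, a phosphatase that acts on JAK2 and TYK2, rose in the cornea from 2709 ± 273 (SD, n = 5) to 3940 ± 354 (SD, n = 5) normalized counts. The fitted change of 0.54 ± 0.10 (SE) on the log2 scale passed limma's test (adjusted p = 0.0121, and 0.00178 to 0.0877 over 19 alternatives) but is under the fold of 1.5. In the conjunctiva its change was 0.41 ± 0.15 (SE; limma, adjusted p = 0.352). The SOCS box partner *Eloc* had -0.19 and -0.25. Of the STAT3 targets *Junb* had 0.43 ± 0.13 (SE; limma, adjusted p = 0.108) in the cornea and *Bcl3* had -0.93 ± 0.21 (SE; adjusted p = 0.0767) in the conjunctiva. The interferon target *Irf1* had -0.19 ± 0.10 and -0.33 ± 0.13 (SE) and was called in neither tissue. *Retnla*, a STAT6 target of macrophages, had -1.62 ± 0.33 (SE; limma, adjusted p = 0.0889) in the conjunctiva, and it was called with array weights and without CR 3.

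The difference between the tissues' diet changes was tested from limma's fits with Satterthwaite degrees of freedom, and 0.0168% of the 11928 genes tested in both tissues passed after adjustment, with 7.48% at an unadjusted p under 0.05. Of 75 pathway genes 0 differed after adjustment and 8 had an unadjusted p under 0.05. By the methods several tissues were taken from each mouse, so cornea and conjunctiva libraries may share animals, which this test does not take into account. *Lif* (leukemia inhibitory factor, a gp130 ligand) was named after its values were seen, and its values are a description. It is among the 8 genes, and nothing is read from its part in that count. Its mean was 6.06 normalized counts in cornea AL and 16.1 in cornea CR, so that it passed the filter there only through the CR group, and its log2 difference was 1.67 ± 0.89 (SE). In the conjunctiva it was 39.1 in AL and 15.9 in CR, with a log2 difference of -1.62 ± 0.69 (SE).

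**Figure D4:**
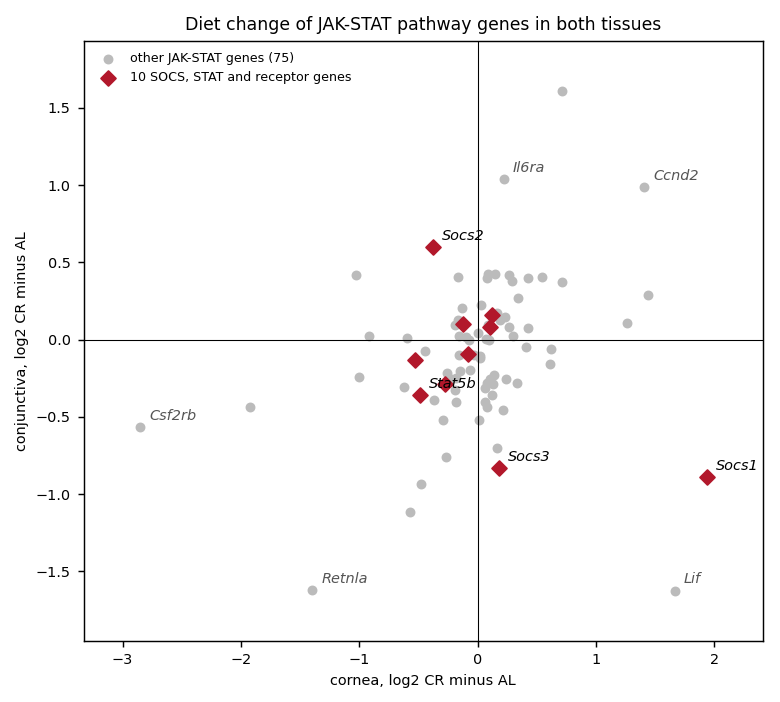
Fitted log2 change from AL to CR in the cornea (horizontal) and the conjunctiva (vertical) for the 10 genes of the set (diamonds) and the 75 other JAK-STAT genes tested in both tissues (grey points). *Socs1* (1.93, -0.89) and *Lif* (1.67, -1.62) lie in the lower right, and *Ccnd2* (1.40, 0.99) lies in the upper right.

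Lists of markers of other cell types also had medians away from 0 in the same libraries. In the conjunctiva all 10 macrophage markers lay below 0 (median log2 change -0.57, 0 called), with summed levels of 3525 to 4637 normalized counts in AL and 2248 to 3571 in CR. The 9 fibroblast markers also lay below 0 (median -0.67, with *Col1a1* and *Col3a1* called lower), with sums of 41220 to 61551 and 27319 to 53035. So did the 5 leukocyte and T cell markers (median -0.65), with list sums of 1131 to 1616 in AL and 657 to 1134 in CR. The 6 endothelial markers lay below 0 as well (median -0.27), but their sums overlapped, at 1396 to 1958 in AL and 574 to 2168 in CR. The conjunctival epithelial list had a median of 0.01 and the muscle list 0.49. The muscle sums overlapped, at 11320 to 51271 in AL and 13259 to 112006 in CR. None of these lists had a marker at 0 in every conjunctiva library. Their part in the lower conjunctival *Socs1* and *Socs3* values and in the higher *Socs2* values was not tested.

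In the cornea the 5 macrophage markers measured lay below 0 (median -0.38, with *C1qa* called lower; sums of 335 to 429 in AL and 207 to 311 in CR), as did 2 of 3 leukocyte markers (sums of 31.8 to 172 and 18.9 to 65.9). All 6 lacrimal gland markers measured lay below 0 (median -2.32), with AL 1 far above the other libraries. *Esp6* had 5.31 to 1518 normalized counts in AL and 0 to 4.55 in CR, and *Obp1a* had 15.9 to 20439 and 0 to 5.48. Both passed the filter on low counts only through the AL group. Nothing is therefore read from their direction, nor from the call of *Esp6* as lower. The 6 conjunctival epithelial markers measured lay above 0 (median 0.48), with sums of 39288 to 56916 in AL and 44728 to 81631 in CR. The highest CR sum was that of CR 7, and the other CR libraries lay within the AL range. The median sum was 48461 in AL and 46066 in CR. The corneal epithelial list had a median of -0.15, the fibroblast list -0.05, and the single endothelial and muscle markers measured 0.71 and 1.06, with *Myh2* at 0 in every library. Corneal *Socs1* was higher in every CR library than in every AL library, so leaving out the libraries named as standing apart could not change its direction. The part of these markers in it was not tested.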

How the data were processed

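RNA sequencing libraries from cornea and conjunctiva (19 in all) were grouped by their deposited labels, and 0 columns were left unmapped. By the study's methods the authors trimmed reads with cutadapt, aligned them to mm10 with STAR, counted them per gene with HTSeq and scaled them with DESeq2 size factors; tool versions are not given in the sources used here. The submitters' processing notes name GRCm39 instead. The labels name a stranded mRNA kit and the methods an oligo(dT) kit, so library type and strand use were not settled. The deposited log2 values of each tissue are log2(count divided by size factor, plus 1), made by the authors in a table per tissue, and 100% of them gave whole reads (tolerance 0.1).

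Of 24557 features per table, 10 that share 5 symbols were left out. Diets were compared with limma 3.58.1 (trend, robust; statmod 1.5.0, R 4.3.3) on log2(normalized count + 1), which understates changes of low genes, keeping genes that averaged 10 or more normalized counts, with Benjamini-Hochberg adjustment over all genes tested. A gene was called at an adjusted p under 0.05 and a fold over 1.5. Voom on the recovered reads was added after the data were seen. The difference between tissues was tested with Satterthwaite degrees of freedom. The fits were tested on simulated data. Members and lists were chosen with earlier results of these data known. Named by rule were the 10 genes, the other SOCS, STAT and kinase genes, called pathway genes and the pathway gene with the smallest p per role and tissue. One gene under this rule, and the pair and target list that rest on it, are not reported here. The labels do not say that libraries came from separate animals, so p-values measure the spread between these libraries.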

Additional observations from a re-analysis of the deposited data

Results flagged for a closer look

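The opposite diet changes of *Socs1* were set apart because all 5 cornea CR libraries lay above the AL mean and all 5 conjunctiva CR libraries below it, with a difference of 2.82 on the log2 scale. This difference chose the genes, so it is a description and no test of it is given.

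Single libraries stood apart from the rest of their group in 7 of 120 gene and group combinations examined, and chance alone gives about 1 in 20. *Il6st* had 108.3 normalized counts in cornea CR 3 against 177.8 to 189.5 in the other CR libraries, and 447.0 in conjunctiva AL 5 against 545.4 to 567.8. *Clcf1* had 199 in cornea CR 3 against 117 to 131. *Csf2rb* had 0 in cornea AL 4 against 34.1 to 70.0. *Jak2* had 536 in conjunctiva AL 1 against 449 to 458, *Junb* 3686 in cornea CR 1 against 5749 to 6209, and *Irf1* 4833 in conjunctiva CR 2 against 3626 to 3907.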

How the results depend on the processing

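None of the 367 values of the 10 genes under an alternative moved by more than 1 SD of its libraries. For the values with 1 library left out this was fixed in advance, since dropping a single library cannot move a group mean that far. *Socs1*, *Socs7*, *Cish* and *Stat5b* kept their sign in both tissues under every alternative run, as did corneal *Stat5a* and conjunctival *Socs2* and *Socs3*. Corneal *Socs2*, *Socs3*, *Socs5*, *Stat3* and *Il6st* and conjunctival *Socs5*, *Stat3*, *Stat5a* and *Il6st*, all with changes within 1 SE of 0, turned sign under at least 1. Counts of called genes depended more on the setting. All genes called in the cornea were 150, and 705 with array weights, 62 with the share of features at 0 reads as a covariate, 99 by voom and 53 to 536 with 1 library left out (53 without AL 5, 536 without AL 4). In the conjunctiva they were 50, 149 with array weights and 26 to 127 with 1 library left out (26 without CR 2, 127 without CR 3). Pathway genes called were 1 in each tissue, 3 in each with array weights, 2 in the cornea by adjusted p alone, and with 1 library left out 1 to 5 for cornea (5 without AL 4) and 0 to 2 for conjunctiva (2 without CR 3). The corneal counts with array weights and without AL 4 include *Csf2rb*, which passed the filter only through the AL group, so nothing is read from its calls. The cause of these shifts was not tested. Depth limits corneal *Socs1* and *Socs3* most.

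With the replicate number as a block, 46 genes were called in the cornea and 10 in the conjunctiva, with 1 and 0 pathway genes, and the log2 change of *Socs1* was 1.81 and -0.79. Libraries without a partner (cornea AL 5 and CR 7, conjunctiva CR 2) add nothing to that fit. Deviations of same-numbered AL and CR libraries had correlations of -0.30 to 0.29 (cornea) and -0.06 to 0.05 (conjunctiva). In these tissues 1 of 4 and 0 of 4 AL libraries correlated best with its own number. Same-numbered cornea and conjunctiva libraries of a diet had correlations of -0.42 to 0.14. So few pairs cannot settle whether libraries with the same number share more than that number.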
